A study of Mus musculus with 6 samples.

Results

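The genes described here are those of the fibroblast growth factor (FGF), bone morphogenetic protein (BMP) and transforming growth factor beta (TGF-beta) pathways in the lateral ganglionic eminence (LGE) of the mouse embryo. They were chosen by gene symbol among the protein-coding genes of the deposited table. The patterns took the numbered Fgf, Bmp and Smad genes, the receptors Fgfr1 to Fgfr4, all Bmpr and Acvr genes and Tgfbr1 to Tgfbr3, the ligands Tgfb1 to Tgfb3, the Sprouty genes Spry1 to Spry4 and the Id genes Id1 to Id4. This gave 67 of the 29659 genes. Bulk RNA-seq had been done on LGE dissected at embryonic day 16.5 from C57BL/6 mice, with 3 libraries in each of 2 groups. The control group carried Dlx5/6-Cre, and the Zfhx3-CKO group carried Dlx5/6-Cre; Zfhx3F/F, so that both groups held the Cre transgene and only the second held floxed Zfhx3, which encodes a transcription factor with zinc fingers and homeodomains. Dlx5/6-Cre expresses the recombinase in cells of the ganglionic eminences that use Dlx genes, and a dissected piece also holds cells outside that domain. The labels name the group and a replicate number and name no animal for any library. The spread that the p-values measure is therefore that between libraries and may be technical.

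FGF ligands bind receptor tyrosine kinases (Fgfr genes) and drive the MAP kinase cascade, which Sprouty proteins restrain by feedback. BMP, activin and TGF-beta ligands bind pairs of type I and type II serine/threonine kinase receptors. BMP receptors phosphorylate Smad1, Smad5 and Smad9, TGF-beta and activin receptors phosphorylate Smad2 and Smad3, and Smad4 is the partner of both sets. Smad6 and Smad7 are inhibitory Smads that the pathway itself induces, and the Id genes, which encode inhibitors of basic helix-loop-helix transcription factors, are well-known BMP targets. In the embryonic forebrain these signals are known for patterning, for the upkeep of progenitors and for the timing of their differentiation.

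The control libraries held 15938590 to 16753355 counts and the Zfhx3-CKO libraries 18960574 to 20311799. Values are given as CPM, counts scaled to the size of the library, for comparing libraries and as FPKM, fragments scaled to library size and gene length, for comparing genes. The 18 LGE and striatal identity genes summed to 5514 to 5917 CPM in the control libraries and 4968 to 5250 CPM in Zfhx3-CKO, with 2 of them higher and 6 lower past the threshold and none at 0 in any library. Zfhx3 itself was measured at 134, 135 and 101 CPM in the control libraries and at 98.8, 87.4 and 99.4 CPM in Zfhx3-CKO, a log2 fold change of -0.37 (SE 0.12) whose adjusted p was 0.0910 in edgeR's quasi-likelihood test. Counts are per gene, not per exon, and which exons were floxed is not named in the labels. Xist, which coats the inactive X chromosome, had 5 to 9 counts in control and 55947 to 59631 in Zfhx3-CKO, and the Y-linked Uty had 650 to 724 and 0 to 3, so sex and genotype cannot be told apart. Of 15 cortical excitatory neuron genes, 14 were tested and all 14 had a positive log2 fold change, 2 of them past the threshold. Their summed level was 250 to 273 CPM in the control libraries and 483, 337 and 557 CPM in Zfhx3-CKO libraries 1, 2 and 3, with none of the genes at 0 in a library. The 9 medial ganglionic eminence genes, 4 of them higher past the threshold, summed to 291 to 316 CPM in control and to 367, 474 and 541 CPM in Zfhx3-CKO libraries 1, 2 and 3. The part of these cells in the values below was not tested.

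Most genes of the 3 pathways did not pass the test between the groups. Of the 67 members, 51 passed the filter on low counts, and 16 did not, namely 10 FGF ligands, 5 genes of the Bmp pattern and Smad9. Fgfr1, Smad3, Bmp7 and Id1 were higher in Zfhx3-CKO, Bmp15 was lower, and the other 46 did not pass the threshold of an adjusted p of 0.05 (edgeR's quasi-likelihood test, Benjamini-Hochberg over all 16551 genes tested). The 4 higher members are 7.84% of those tested, against 3.87% of all genes tested, and the 1 lower member is 1.96%, against 3.49%. At an unadjusted p under 0.05 there were 11 higher (21.6%, against 13.5% of all genes tested) and 4 lower members (7.84%, against 12.1%). The 3 Zfhx3-CKO values lay above all 3 control values for 11 members (21.6%, against 15.5% of all genes tested) and below them for 7 (13.7%, against 15.9%), where the groups of 31.4% of all genes tested did not overlap in 1 direction or the other. The median log2 fold change of the tested members was 0.007, and that of all genes tested was 0.001. In this bulk tissue, a change in the number of cells of a type and a change in RNA per cell cannot be told apart.

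**Figure D1:**
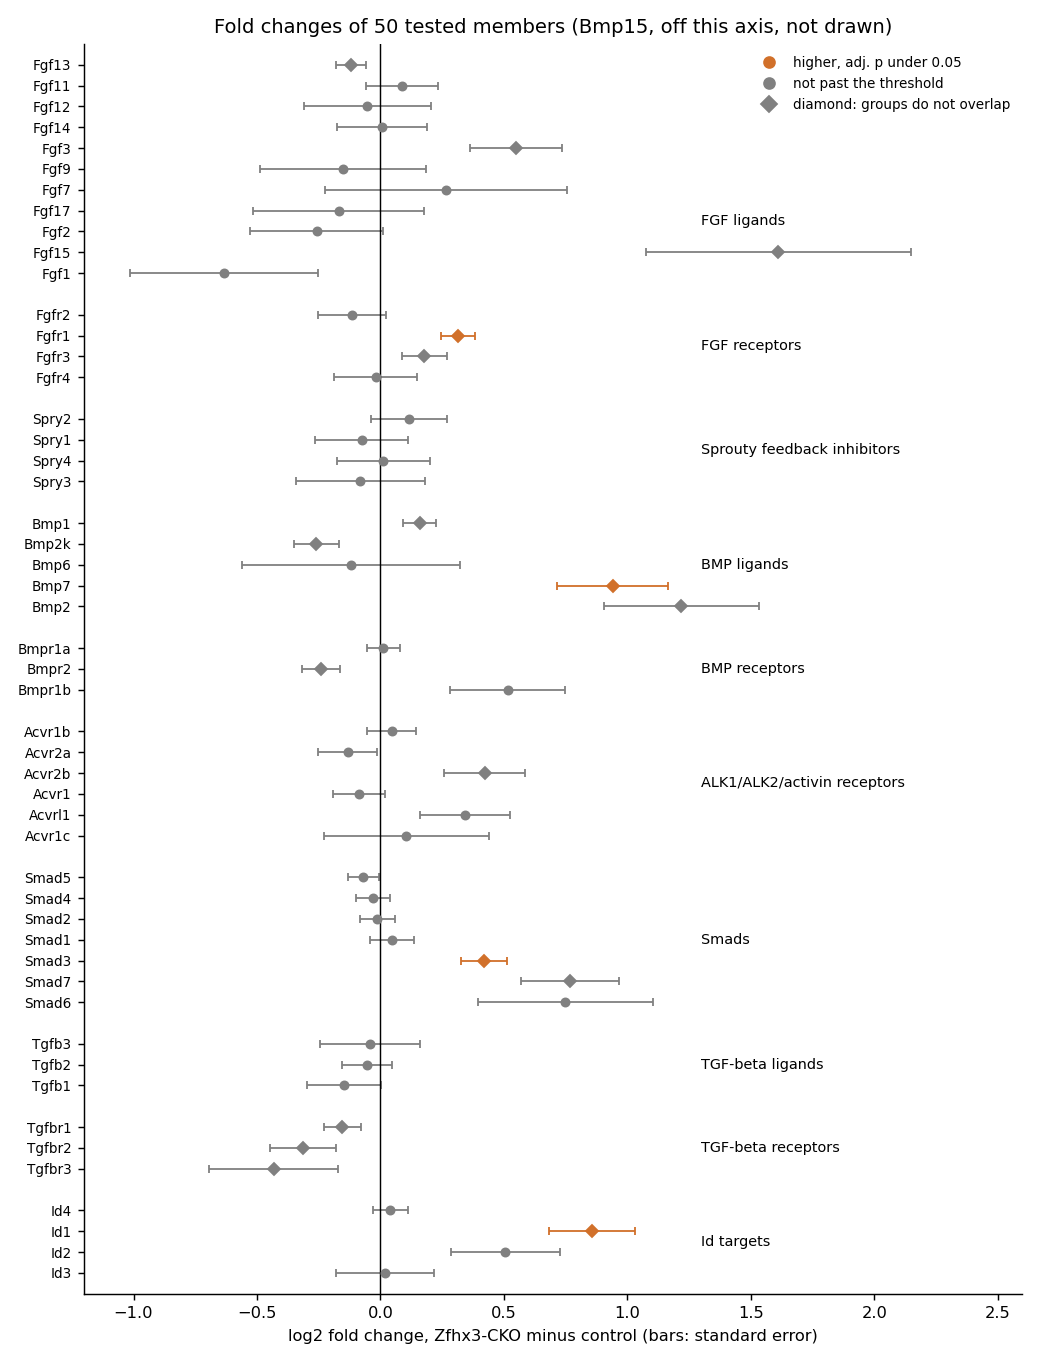
Log2 fold change (Zfhx3-CKO minus control, x axis) of 50 tested members, listed by role on the y axis, with bars for the standard error. Orange points passed an adjusted p of 0.05, and diamonds mark members whose 3 Zfhx3-CKO and 3 control CPM values do not overlap. Fgfr1, Bmp7, Smad3 and Id1 are orange, and the 3 TGF-beta receptors are all diamonds left of zero. Bmp15, off this axis, is not drawn.

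The FGF ligands were led by genes whose products are not secreted. Of the 21 genes, 11 were tested and none passed the threshold, with 2 at an unadjusted p under 0.05 and 0 called by DESeq2. On the FPKM scale the highest level was that of Fgf13, at 24.9 on average over the 6 libraries, followed by Fgf11 at 21.0, Fgf12 at 4.49 and Fgf14 at 4.26. These 4 genes encode FGF homologous factors, which stay in the cell and bind voltage-gated sodium channels. Fgf13, which is on the X chromosome, was measured at 103, 106 and 103 CPM in the control libraries and at 96.1, 93.2 and 98.9 CPM in Zfhx3-CKO. No value of one group lay within the other, and the difference was small (log2 fold change -0.12, SE 0.06, adjusted p 0.263).

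Among the other 17 ligands, which act outside the cell, 7 were tested and the highest mean level was 2.25 FPKM, that of Fgf3. Fgf3 stood at 4.72, 3.66 and 4.37 CPM in the control libraries and 7.25, 5.98 and 5.43 CPM in Zfhx3-CKO. All 3 Zfhx3-CKO values were above the control values, with a log2 fold change of 0.55 (SE 0.19) that did not pass the threshold (adjusted p 0.110). Fgf15, the mouse counterpart of human FGF19, had 4, 9 and 3 counts in the control libraries and 14, 30 and 15 in the Zfhx3-CKO libraries. The groups again did not overlap, and Zfhx3-CKO library 2 was the highest (log2 fold change 1.61, SE 0.54, adjusted p 0.104). An antisense gene, Gm26793, overlaps Fgf15, and without strand in the library kit the reads of the pair cannot be told apart. Gm26793 went the other way, at a mean of 1.62 CPM in control and 0.778 CPM in Zfhx3-CKO (log2 fold change -1.06, not past the threshold). The Fgf15 means were 0.329 and 1.01 CPM, so the Fgf15 difference is uncertain. Leaving out Zfhx3-CKO libraries 1 and 3, the ones highest in cortical excitatory genes, leaves 1 Zfhx3-CKO library, so that the spread comes from the controls alone. Values from that comparison are given here as a fold change of library 2 against the controls, with no call. For Fgf15, whose count is highest in library 2, it was 2.26 on the log2 scale. Fgf3 and Fgf15 lie 52.1 kb apart on chromosome 7, and Ccnd1, the cyclin D1 gene of the G1 phase, lies 29.0 kb beyond Fgf15. Ccnd1, named here for its position after its values were seen, was higher in Zfhx3-CKO, at 44.2 to 53.7 CPM against 66.3 to 69.6 CPM (adjusted p 0.0142, log2 fold change 0.49, SE 0.09). Ccnd1 is also among the neural progenitor genes summed below, and among those called higher there.

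The remaining FGF ligands were scarce. Fgf8, a ligand of forebrain patterning centres, had 2 counts over the 3 control libraries and 0 over the 3 Zfhx3-CKO libraries. Fgf18, named after its values were seen, did not pass the filter, with 4, 4 and 2 counts in the control libraries and 16, 8 and 35 in the Zfhx3-CKO libraries. Its groups did not overlap, and Zfhx3-CKO library 3 alone held most of the counts. With no filter on low counts Fgf18 was called higher (adjusted p 0.0204), as it was without Zfhx3-CKO library 2 (0.0228). Over all roles, 7 members had under 10 counts in the 6 libraries together.

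Fgfr1 was the 1 FGF receptor of 4 that was higher in Zfhx3-CKO. Fgfr1 (ENSMUSG00000031565, chromosome 8, 25513654 to 25575718, plus strand, GRCm38) encodes a receptor tyrosine kinase of neural progenitors. Its level was 102, 100.2 and 109 CPM in the control libraries and 136, 125 and 126 CPM in Zfhx3-CKO. The lowest Zfhx3-CKO value was above the highest control value, and the 1.24-fold difference passed the threshold (log2 fold change 0.31, SE 0.07, adjusted p 0.0323). Fgfr1 no longer passed when control 1 (adjusted p 0.137), control 2 (0.144) or Zfhx3-CKO 1 (0.123) was left out, with GC and length trends removed (log2 fold change 0.22, 0.121) or on log2(FPKM + 1) in limma (0.0584). Zfhx3-CKO library 2 alone gave a log2 fold change of 0.27. Of 14 neural progenitor genes, 13 were tested, 4 were higher past the threshold and 0 lower. The 14, 1 of them under 1 CPM in every library and none at 0, summed to 3571 to 3994 CPM in the control libraries and to 4744, 4857 and 3719 CPM in Zfhx3-CKO libraries 1, 2 and 3. Their part in the Fgfr1 value was not tested.

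Of the other receptors, Fgfr3, known from ventricular zone progenitors and astrocytes, was at 45.3, 55.6 and 52.9 CPM in the control libraries and at 56.5, 59.9 and 57.6 CPM in Zfhx3-CKO. Those groups were adjacent without overlapping, and the log2 fold change of 0.18 (SE 0.09) had an adjusted p of 0.255. Fgfr2 had the highest mean level of the receptors, 12.6 FPKM, with overlapping groups (log2 fold change -0.12, SE 0.14, adjusted p 0.646). The Fgfr2 model in the deposited table spans 2.96 Mb, where the median of the other members is 31.7 kb. It overlaps 54 other genes, 13 of them protein-coding and on the same strand. Others are protein-coding and on the opposite strand, such as Plekha1 and Tacc2. Without strand in the library kit, overlap on either strand makes the Fgfr2 counts uncertain. The same limit holds for other members that overlap a tested gene on the opposite strand, such as Bmp2k (Paqr3), Tgfb3 (Ttll5) and Acvr2a (Orc4). Of the called members, 0 overlap another tested gene. Fgfr4 was low, at 1.16 FPKM, with a log2 fold change of -0.02 (adjusted p 0.960).

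The Sprouty genes, which are induced by FGF signalling and restrain it, held no called gene. None of the 4 passed the threshold in edgeR's quasi-likelihood test, 0 were called by DESeq2, and 0 had an unadjusted p under 0.05. Spry2 had the highest level, 10.9 FPKM on average, and its CPM values were 22.9, 18.5 and 24.1 in the control libraries and 27.1, 24.8 and 19.3 in the Zfhx3-CKO libraries. The groups overlapped (log2 fold change 0.12, SE 0.15, adjusted p 0.683). Over the 4 genes the log2 fold changes ran from -0.08 to 0.12.

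The BMP genes held the member with the largest called increase and the 1 called decrease. Of 11 genes matched by the Bmp pattern, 6 were tested, 1 was higher and 1 lower. Bmp7 (ENSMUSG00000008999, chromosome 2, 172868012 to 172940321, minus strand), a secreted BMP of the forebrain midline and meninges, was at 3.53, 2.46 and 4.25 CPM in the control libraries and at 7.5, 5.83 and 6.36 CPM in Zfhx3-CKO. Every Zfhx3-CKO library was above every control library, and the level was 1.92-fold higher (log2 fold change 0.94, SE 0.23, adjusted p 0.0433). The Bmp7 call was lost without control library 1 (adjusted p 0.148), 2 (0.140) or 3 (0.0510), without Zfhx3-CKO library 1 (0.141), with GC and length trends removed (log2 fold change 0.86, 0.0530) and on log2(FPKM + 1) in limma (0.0718). Zfhx3-CKO library 2 alone gave a log2 fold change of 0.77. The 12 meningeal and fibroblast genes, of which 3 were at 0 in some library, summed to 53.5 to 58.1 CPM in the control libraries and to 52.0, 107 and 61.3 CPM in Zfhx3-CKO libraries 1, 2 and 3. The part of these cells in the Bmp7 value was not tested.

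Bmp2, a close relative of Bmp4, had 1.25, 1.32 and 1.5 CPM in the control libraries and 3.14, 2.01 and 4.36 CPM in Zfhx3-CKO. All 3 Zfhx3-CKO values exceeded the control values, and library 3 stood highest. The log2 fold change of 1.22 (SE 0.31) had an adjusted p of 0.0533 and narrowly missed the threshold. Bmp2 was called by DESeq2 (adjusted p 0.0264), with no filter on low counts (0.0165) and without Zfhx3-CKO library 2 (1.46, 0.0122). Zfhx3-CKO library 2, the lowest of its group for Bmp2, alone gave a log2 fold change of 0.56. The Bmp2 order over the Zfhx3-CKO libraries, 3 above 1 above 2, is that of the summed cortical excitatory genes, 557, 483 and 337 CPM. That order is not particular to Bmp2. It was found in 14 of the 51 tested members, the called Smad3 and Id1 among them. The share of all genes tested with this order was not counted, so the 14 have no background to be set against. The part of the cortical excitatory genes in these values was not tested.

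Bmp6 went the other way within the group, at 1.81, 5.61 and 1.90 CPM in Zfhx3-CKO libraries 1, 2 and 3 against 3.05, 2.71 and 4.31 CPM in the control libraries. The groups overlapped, and the library with the high value is the one with 107 CPM of meningeal and fibroblast genes (log2 fold change -0.12, SE 0.44, adjusted p 0.897). The part of these cells in the value was not tested, and Bmp6 was named after its values were seen.

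Bmp1 and Bmp2k match the symbol pattern but do not encode ligands of the BMP receptors. Bmp1 encodes a secreted metalloprotease that processes collagens and the BMP antagonist chordin, and it had the highest level of the pattern, 17.7 FPKM. It was at 64.9, 62.0 and 61.7 CPM in the control libraries and at 69.1, 73.0 and 68.6 CPM in Zfhx3-CKO. The groups did not overlap, and the log2 fold change was 0.16 (SE 0.07, adjusted p 0.174). Bmp2k encodes an intracellular kinase, and it was at 32.3, 32.0 and 32.7 CPM in the control libraries and at 24.7, 28 and 28.4 CPM in Zfhx3-CKO. All 3 Zfhx3-CKO values were below the control values (log2 fold change -0.26, SE 0.09, adjusted p 0.123).

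Bmp15 was present at a low level in the control libraries and nearly absent from the Zfhx3-CKO libraries. Bmp15 (ENSMUSG00000023279, X chromosome, 6314107 to 6320721, minus strand) is best known as a growth factor of the oocyte. It had 13, 15 and 24 counts in the control libraries and 1, 0 and 0 in the Zfhx3-CKO libraries. The groups did not overlap, and the sum of 52 counts against 1 gives a ratio of 62.2 after scaling by depth, with an exact 95% interval of 10.7 to 2504 that covers counting error only. The adjusted p in edgeR's quasi-likelihood test was 0.00472, and the fitted log2 fold change of -5.47 depends on the prior count. The call held in every alternative setting in which Bmp15 was tested with more than 1 Zfhx3-CKO library, with an adjusted p of at most 0.0297. Because the gene is X-linked, its difference cannot be told apart from the difference in sex between the groups. Of 597 X-linked genes tested, 2.68% were higher and 6.70% lower. Its neighbours on either side, Nudt10 and Shroom4, had log2 fold changes of 0.02 (adjusted p 0.944) and -0.06 (0.851). Dgkk, further along, had 14.4 to 23.2 CPM in the control libraries and 2.49 to 12.3 CPM in Zfhx3-CKO (-1.53, SE 0.46, adjusted p 0.0827). These 3 genes were named for their position after their values were seen. The Bmp15 promoter, shown because this is the 1 lower member, is given below from RefSeq (GRCm38.p6, chrX:6320675-6320974, minus strand), 250 bases before to 50 after the gene's start, with the Smad box GTCT in capitals.
Bmp15: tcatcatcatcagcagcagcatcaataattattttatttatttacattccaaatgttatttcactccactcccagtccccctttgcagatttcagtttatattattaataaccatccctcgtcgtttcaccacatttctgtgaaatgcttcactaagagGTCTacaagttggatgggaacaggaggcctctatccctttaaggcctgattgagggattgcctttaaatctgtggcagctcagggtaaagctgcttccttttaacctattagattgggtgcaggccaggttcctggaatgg

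**Figure D2:**
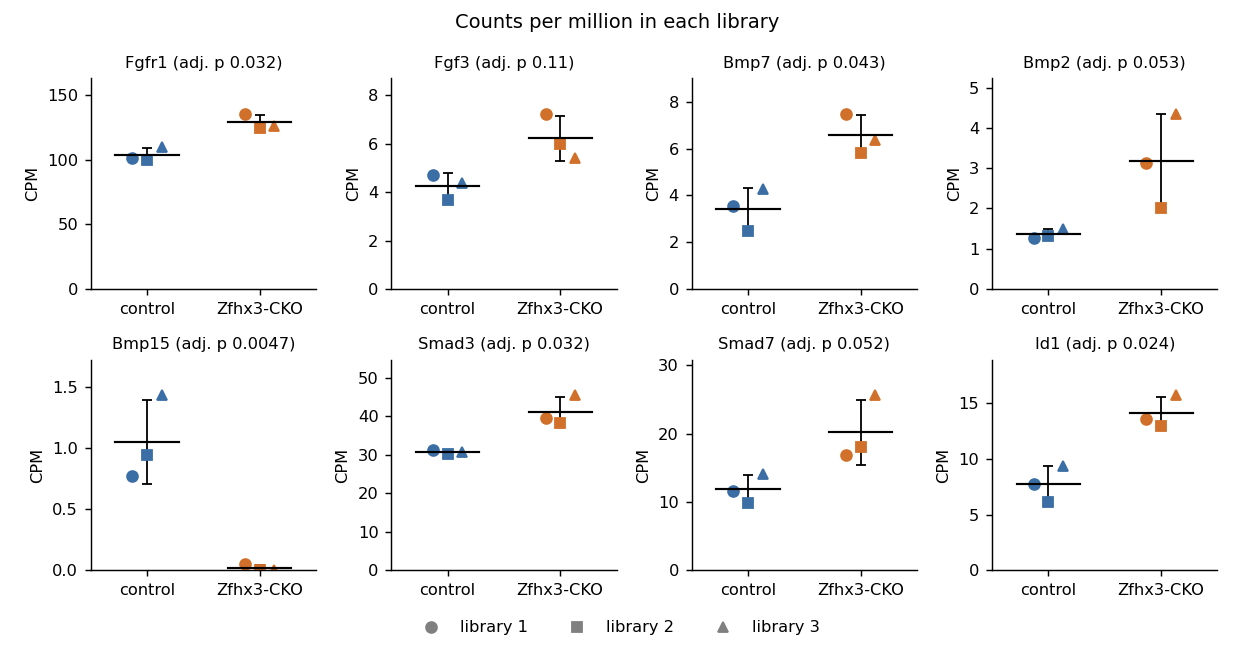
CPM (y axis, from 0) of 8 members in each library, control in blue and Zfhx3-CKO in orange, with the symbol giving the replicate number, a line for the mean and bars for the SD of 3 libraries. In all 8 the groups do not overlap, and Bmp15 falls from 13, 15 and 24 counts to 1, 0 and 0.

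Of the BMP receptors, Bmpr1a, a type I receptor, had the highest level, 16.6 FPKM, at 110, 98.6 and 108 CPM in control and 105, 109 and 105 CPM in Zfhx3-CKO. The groups overlapped, and the log2 fold change was 0.01 (SE 0.07, adjusted p 0.938). Bmpr2, the main type II receptor for BMPs, was at 277, 263 and 244 CPM in the control libraries and at 209, 217 and 237 CPM in Zfhx3-CKO. All Zfhx3-CKO values were below the control values (log2 fold change -0.24, SE 0.08, adjusted p 0.0924). The Bmpr2 difference without Zfhx3-CKO library 3 passed the threshold (-0.29, adjusted p 0.0393). Bmpr1b, the other type I receptor, had 7.89, 8.01 and 6.17 CPM in the control libraries and 13.9, 7.36 and 10.3 CPM in Zfhx3-CKO. Here the groups overlapped through Zfhx3-CKO library 2 (log2 fold change 0.51, SE 0.23, adjusted p 0.211).

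The 6 Acvr genes encode receptors shared by activins, BMPs and related ligands. None passed the threshold in edgeR's quasi-likelihood test, 1 had an unadjusted p under 0.05, and DESeq2 called 0. Acvr1b, the type I activin receptor ALK4, had the highest level, 29.7 FPKM, and an adjusted p of 0.814 at a log2 fold change of 0.05 (SE 0.10). Acvr2b, a type II receptor, was at 47.7, 50.8 and 31.3 CPM in the control libraries and at 54.2, 62.9 and 56.9 CPM in Zfhx3-CKO. The groups did not overlap, with control library 3 well below the other two (log2 fold change 0.42, SE 0.16, adjusted p 0.152). The remaining 4 genes had overlapping groups, with log2 fold changes from -0.13 for Acvr2a to 0.34 for Acvrl1, the endothelial receptor ALK1. The 17 endothelial and pericyte genes, none at 0, summed to 374 to 384 CPM in the control libraries and to 387, 409 and 484 CPM in Zfhx3-CKO libraries 1, 2 and 3. Acvrl1 followed the same order in Zfhx3-CKO, at 7.20, 9.0 and 9.69 CPM. In control libraries 1, 2 and 3 it did not. There Acvrl1 was at 6.10, 6.18 and 8.14 CPM, and the sum was 383.5, 374.0 and 373.9 CPM. The part of these cells in the Acvrl1 value was not tested.

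The TGF-beta ligands had overlapping groups, and the values of all 3 TGF-beta receptors lay below the control values in Zfhx3-CKO, as did those of 15.9% of all genes tested, without passing the threshold. Tgfb1, Tgfb2 and Tgfb3 had mean levels of 2.5, 2.99 and 4.10 FPKM and log2 fold changes of -0.15, -0.05 and -0.04. None of the 6 TGF-beta ligands and receptors passed the threshold in edgeR's quasi-likelihood test, 1 had an unadjusted p under 0.05, and DESeq2 called 0. Tgfbr1, the type I receptor ALK5, had the highest level of the 3 receptors, 23.2 FPKM. It was at 164, 158 and 157.0 CPM in the control libraries and at 134, 156.9 and 140 CPM in Zfhx3-CKO. The groups were separated by a very narrow gap between control library 3 and Zfhx3-CKO library 2 (log2 fold change -0.15, SE 0.08, adjusted p 0.239). Tgfbr2, the type II receptor, was at 25.3, 22.6 and 29.0 CPM and at 22.0, 22.2 and 17.7 CPM. The groups were again only just apart (log2 fold change -0.31, SE 0.13, adjusted p 0.187). Tgfbr3, the coreceptor betaglycan, was low, at 1.43, 1.70 and 1.5 CPM and at 0.931, 1.22 and 1.28 CPM, and did not overlap (log2 fold change -0.43, SE 0.26, adjusted p 0.331). The 10 microglial genes, cells in which TGF-beta receptors are known to be used, summed to 411, 372 and 550 CPM in control libraries 1, 2 and 3 and to 395, 432 and 272 CPM in Zfhx3-CKO libraries 1, 2 and 3, with none at 0. Tgfbr2 was highest and lowest in the same libraries as that sum, and the part of these cells in its value was not tested.

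**Figure D3:**
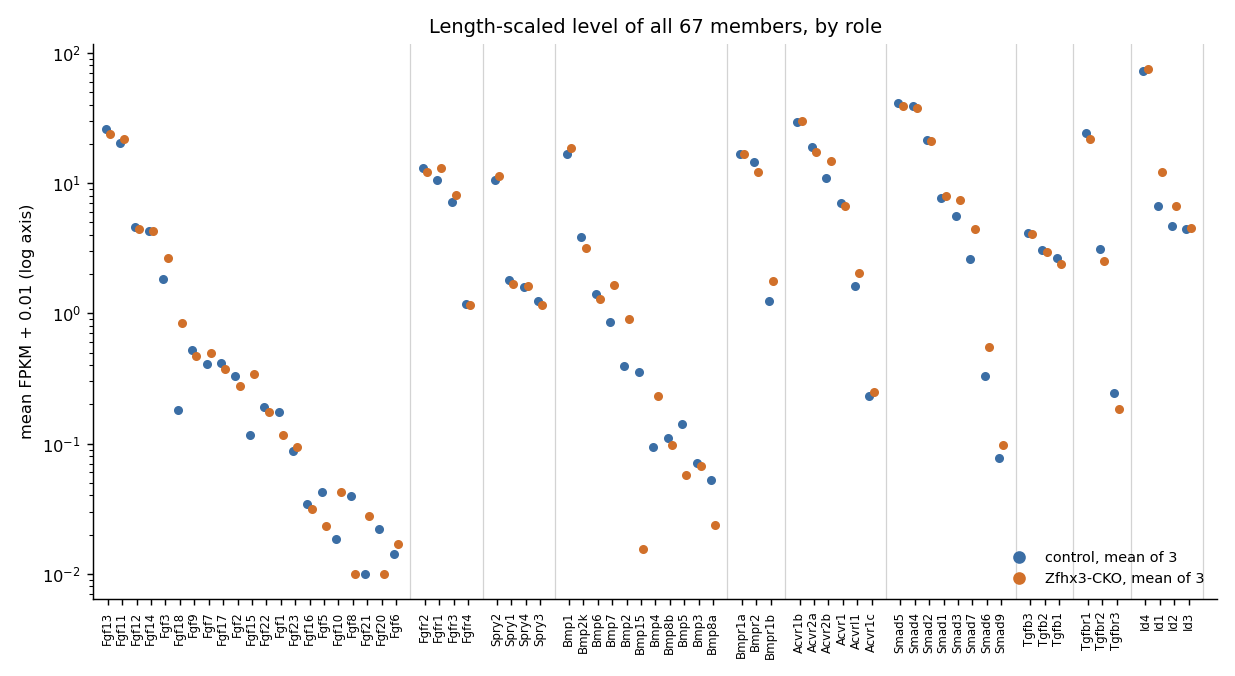
Mean FPKM plus 0.01 (log axis) of all 67 members in the control (blue) and Zfhx3-CKO (orange) libraries, 3 each, with members in order of role and grey lines between roles. Many receptors and Smads lie in the upper range, as do Fgf13, Fgf11 and Bmp1, while others, such as Smad9, Tgfbr3 and Acvr1c, lie under 1 FPKM. Id4 is the highest at 74.0 FPKM, and most FGF and BMP ligands lie under 1 FPKM.

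Among the Smads, Smad3 was higher in Zfhx3-CKO, and the inhibitory Smad7 was close behind. Smad3 (ENSMUSG00000032402, chromosome 9, 63646767 to 63757994, minus strand), which carries TGF-beta and activin signals, was at 31.3, 30.2 and 30.7 CPM in the control libraries and at 39.5, 38.2 and 45.5 CPM in Zfhx3-CKO. The control values lay close together and all Zfhx3-CKO values were above them, 1.34-fold on average (log2 fold change 0.42, SE 0.09, adjusted p 0.0323). The Smad3 call was lost without control library 1 (adjusted p 0.124), 2 (0.140) or 3 (0.0876), or without Zfhx3-CKO library 1 (0.0864). Zfhx3-CKO library 2, the lowest of its group for Smad3, alone gave a log2 fold change of 0.32. Smad2, which carries the same signals, was at 70.8 to 79.1 CPM in the control libraries and 72.5 to 77.3 CPM in Zfhx3-CKO (log2 fold change -0.01, SE 0.07, adjusted p 0.936). Smad5, of the BMP set, had the highest level of the Smads, 40.1 FPKM, followed by the common partner Smad4 at 38.3 FPKM. Both had overlapping groups, with log2 fold changes of -0.07 (SE 0.06, adjusted p 0.530) and -0.03 (SE 0.07, adjusted p 0.814). Smad1, also of the BMP set, was at 7.77 FPKM (0.05, SE 0.09, adjusted p 0.787). Smad1, Smad2 and Smad4 were named after their values were seen.

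Smad7, which blocks type I receptors and is induced by the signals it blocks, was at 11.7, 9.78 and 14.1 CPM in the control libraries and at 16.9, 18.0 and 25.6 CPM in Zfhx3-CKO. The groups did not overlap, and Zfhx3-CKO library 3 was the highest. The log2 fold change of 0.77 (SE 0.20) had an adjusted p of 0.0521 and narrowly missed the threshold. Smad7 was called by DESeq2 (adjusted p 0.00430), with no filter on low counts (0.00778) and without Zfhx3-CKO library 2 (0.0400). Zfhx3-CKO library 2 alone gave a log2 fold change of 0.60. Smad6, the inhibitor of the BMP set, which lies 195 kb from Smad3, had 12, 15 and 24 counts in the control libraries and 24, 37 and 41 in the Zfhx3-CKO libraries. The groups overlapped, with the highest control value at 1.44 CPM and the lowest Zfhx3-CKO value at 1.18 CPM (log2 fold change 0.75, SE 0.35, adjusted p 0.226). Smad6 is named for its promoter, after its values were seen.

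Promoters of 300 bases from RefSeq (GRCm38.p6) were matched to 47 of the 67 members and searched on both strands for the Smad palindrome GTCTAGAC, for the Smad box GTCT, which the palindrome holds on both strands, and for the GC-rich BMP element GGCGCC. The palindrome was found in 1 member, Smad6, and in 57 of all 27025 promoters (0.211%). The Smad box was found in 40 of 47 members and in 88.0% of all promoters, and the GC-rich element in 11 of 47 members and 12% of all promoters. Among the members with no entry, and so not searched, were Smad7, Smad2, Smad4, Id1, Bmp7, Fgfr1 and Bmp2. The promoters of Smad3 (chr9:63757945-63758244, minus strand), the Smad called higher, and of Smad6 (chr9:64022010-64022309, minus strand), the member with the palindrome, are printed with the Smad box on either strand in capitals, so that the palindrome stands out as 1 run of capitals in Smad6. A match is a run of letters in this window, not a site of binding.
Smad3: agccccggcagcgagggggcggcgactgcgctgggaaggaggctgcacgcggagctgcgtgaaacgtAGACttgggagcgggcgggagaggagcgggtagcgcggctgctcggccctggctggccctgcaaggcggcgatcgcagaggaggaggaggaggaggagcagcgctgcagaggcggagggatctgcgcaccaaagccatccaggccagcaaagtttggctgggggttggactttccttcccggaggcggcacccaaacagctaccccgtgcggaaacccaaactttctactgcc
Smad6: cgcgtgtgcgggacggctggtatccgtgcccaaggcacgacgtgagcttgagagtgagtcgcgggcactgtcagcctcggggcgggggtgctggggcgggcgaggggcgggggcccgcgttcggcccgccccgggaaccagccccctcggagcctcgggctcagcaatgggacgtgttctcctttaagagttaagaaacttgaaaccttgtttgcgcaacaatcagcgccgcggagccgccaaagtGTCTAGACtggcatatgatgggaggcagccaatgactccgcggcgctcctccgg

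Of the 4 Id genes, Id1 was higher in Zfhx3-CKO and the other three did not pass the threshold. Id1 (ENSMUSG00000042745, chromosome 2, 152736251 to 152737410, plus strand), the BMP target most often used as a readout of Smad signalling, was at 7.77, 6.18 and 9.40 CPM in the control libraries and at 13.6, 13 and 15.7 CPM in Zfhx3-CKO. Every Zfhx3-CKO library was above every control library, and the level was 1.81-fold higher (log2 fold change 0.86, SE 0.17, adjusted p 0.0244). Id1 no longer passed when control 1 (adjusted p 0.112), control 2 (0.101) or Zfhx3-CKO 1 (0.0794) was left out. Zfhx3-CKO library 2, the lowest of its group for Id1, alone gave a log2 fold change of 0.74. Id4, which had the highest level of all members, 74.0 FPKM, was at 116 to 127 CPM in the control libraries and 118 to 131 CPM in Zfhx3-CKO. Those groups overlapped, with an adjusted p of 0.762 at a log2 fold change of 0.04 (SE 0.07).

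Id2 and Id3, named after their values were seen, had overlapping groups. Id2 was at 10.9, 12.4 and 11.1 CPM in the control libraries and at 16.7, 11 and 21.2 CPM in Zfhx3-CKO. Zfhx3-CKO libraries 1 and 3 were above all control libraries and library 2 was among them (log2 fold change 0.51, SE 0.22, adjusted p 0.192). Without library 2, the library among the controls, the Id2 difference passed the threshold (0.73, adjusted p 0.0205). Libraries 1 and 3 also held the most cortical excitatory RNA, 483 and 557 CPM against 337 CPM in library 2, and its part in the Id2 value was not tested. Id3 was at 6.33, 7.44 and 10.1 CPM and at 8.62, 6.99 and 8.56 CPM (0.02, SE 0.20, adjusted p 0.971).

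Beyond the members, 74 further genes of the same pathways were examined, of which 59 were tested. Of these, 2 were higher (3.39%, against 3.87% of all genes tested) and 0 lower, and DESeq2 called 3 higher and 0 lower. At an unadjusted p under 0.05 there were 12 higher (20.3%, against 13.5% of all genes tested) and 4 lower (6.78%, against 12.1%). Bmper, which binds BMPs outside the cell and modulates them, was at 14.8, 16.9 and 18.3 CPM in the control libraries and at 29.6, 32.4 and 21.1 CPM in Zfhx3-CKO. The groups did not overlap, and Zfhx3-CKO library 3 was the lowest of its group (log2 fold change 0.73, SE 0.17, adjusted p 0.0370). It was the 1 called gene among 15 tested BMP antagonists and further ligands, and its call was lost without control library 1 (adjusted p 0.150), 2 (0.132) or 3 (0.0743) and without Zfhx3-CKO library 1 (0.123) or 2 (0.0543). Ltbp4, which tethers latent TGF-beta to the matrix, was at 28.3, 33.2 and 35.6 CPM in the control libraries and at 42.8, 47.1 and 51.1 CPM in Zfhx3-CKO. All Zfhx3-CKO values were above the control values (log2 fold change 0.54, SE 0.11, adjusted p 0.0253). It was the 1 called gene of 13 tested in the TGF-beta and activin list, and it no longer passed when control 1 (0.108), control 2 (0.106) or Zfhx3-CKO 1 (0.0515) was left out, nor with GC and length trends removed (0.23, 0.193).

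The other lists held 0 called genes in edgeR's quasi-likelihood test. Of 18 tested genes of the FGF list, 2 were higher and 2 lower at an unadjusted p under 0.05, and DESeq2 called 1, Fgfbp3 (adjusted p 0.0154). Fgfbp3, which carries FGFs in the matrix, was at 52.7 to 72.1 CPM in the control libraries and at 73.6 to 101 CPM in Zfhx3-CKO, with groups only just apart (log2 fold change 0.49, SE 0.14, adjusted p 0.0741 in edgeR). Of 11 tested Smad cofactors, 1 was higher and 1 lower at an unadjusted p under 0.05 and DESeq2 called 0. The smallest p there was that of Skil, a Smad corepressor, with -0.25 (SE 0.09, adjusted p 0.115). Of 2 tested BMP targets outside the Id family none had an unadjusted p under 0.05, DESeq2 called 0, and Hey1, a Notch and BMP target, had an adjusted p of 0.912 at a log2 fold change of 0.03 (SE 0.15).

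The members most like each called member over the 6 libraries are given as a description. Since called members differ between the groups, a high Pearson's r of log2 CPM with another member that differs the same way follows from that choice. By this measure, Fgfr1 was most like Bmp7 (0.966), Id1 (0.936) and Fgf3 (0.919). Smad3 was most like Bmp2 (0.960), Smad7 (0.937) and Id1 (0.929), and Id1 was most like Bmp7 (0.965), Smad7 (0.962) and Fgfr1. Bmp7 had Fgfr1, Id1 and Fgf3 (0.933) as its nearest. Bmp15 was most like Fgf13 (0.879), Bmp2k (0.832) and Tgfbr2 (0.788), all of them lower in each Zfhx3-CKO library than in each control library.

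**Figure D4:**
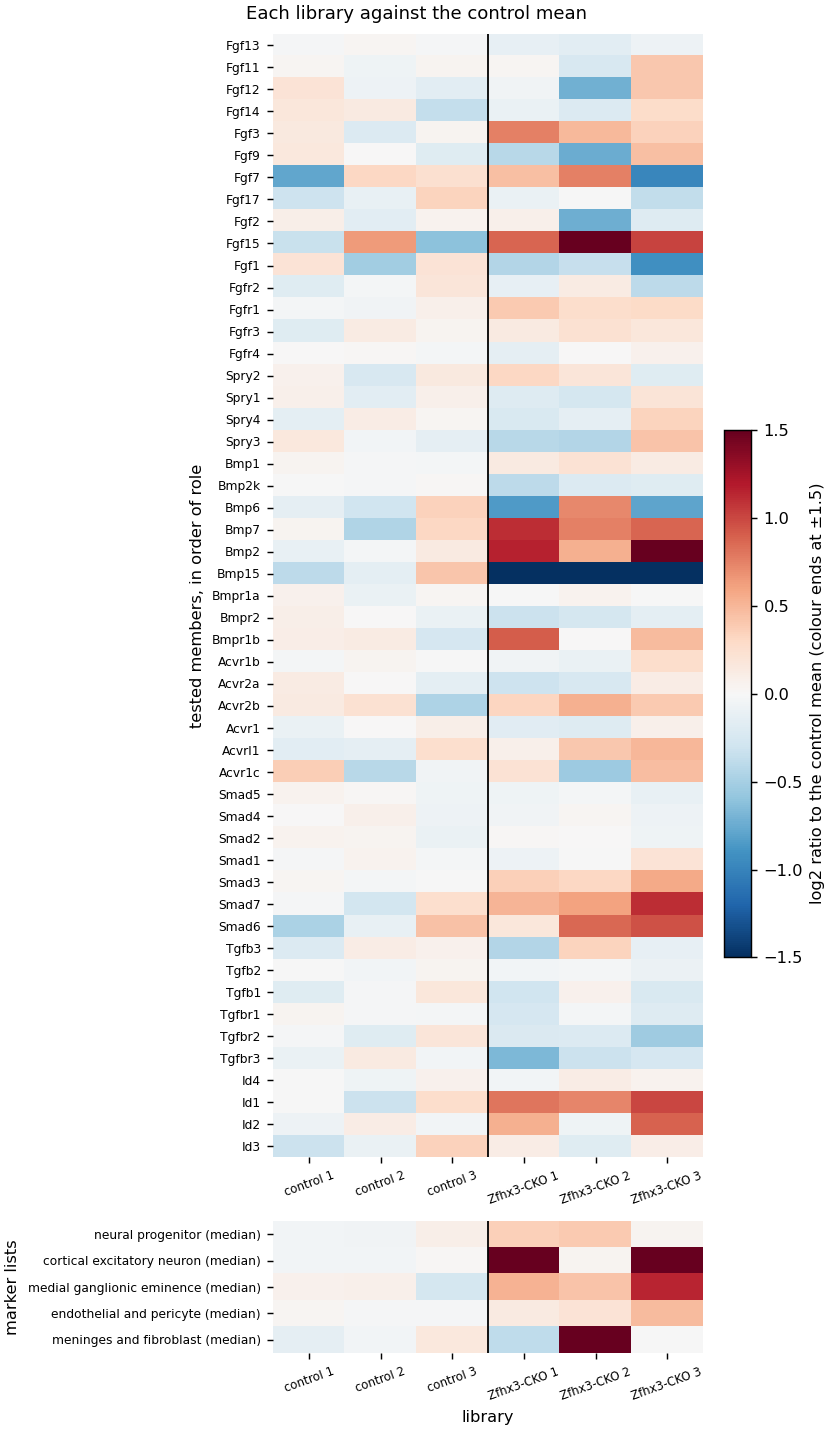
Log2 ratio of each library's CPM to the control mean (pseudocount 0.1 CPM, colour ends at 1.5 either way) for the 51 tested members in order of role, with the medians of 5 marker lists under them. Id1 and Bmp7 are red in all 3 Zfhx3-CKO libraries, and the cortical excitatory median is high in Zfhx3-CKO libraries 1 and 3 (1.54 and 2.0) and near zero in library 2 (0.04).

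The authors' deposited table of the same comparison gives 6 members an adjusted p under 0.05, all higher in Zfhx3-CKO. It gives 20 members, Bmp15 among them, no adjusted p. The share of all genes under 0.05 there was not counted, so the 6 cannot be set against a background. For Bmp15 the authors' deposited table has a log2 fold change of -0.87 and an unadjusted p of 6.08e-06. How the authors' fold changes were computed is not stated, so -0.87 is not comparable with the -5.47 of the edgeR fit. The authors' value is also smaller for Fgf15, another gene of few counts (0.45, against 1.61 in edgeR). For Fgfr1, with many counts, the 2 values are 0.307 and 0.313. In the authors' deposited table the adjusted p is 0.000426 for Id1, 0.00344 for Smad7, 0.00700 for Bmp7, 0.00704 for Smad3, 0.00874 for Fgfr1 and 0.0218 for Bmp2.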

How the data were processed

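RNA-seq of LGE at embryonic day 16.5 was taken from the deposited tables. Per the labels' protocols, libraries came from total RNA with an Illumina TruSeq kit. The kit is of a type that keeps no strand. Tools named in the submitters' processing notes, with no roles, are HISAT2, StringTie, edgeR and bcl2fastq 2.17.1.14, and builds are mm10 and GRCm38.p4. The annotation counted is not stated in the labels or headers. The deposited counts, so named in the column headers, are whole numbers per gene and were taken to have no normalisation. The deposited FPKM, so named in the column headers, were taken to be scaled by gene length and library size. The authors' deposited log2 fold changes and the authors' deposited p-values were only quoted. Coordinates are those of the deposited table (GRCm38).

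Counts of all genes were tested with edgeR 4.0.16 (R 4.3.3, limma 3.58.1): quasi-likelihood test, TMM factors (0.992 to 1.008), filterByExpr at a minimum count of 10 (16551 genes kept, 13108 left out), group as the only term, Benjamini-Hochberg adjustment at 0.05. CPM were scaled by the total of the kept genes times the TMM factor. The test was tried on simulated data. Pairs of libraries within a group differed by more than sampling noise (chi-square per gene 3.15 to 26.7), so none was merged. Pairs across the groups gave 24.7 to 34.1, and the 26.7 of Zfhx3-CKO libraries 2 and 3 lies within that range. Same-numbered libraries did not pair.

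The members and lists were chosen with earlier results of these data known. Genes named were every called member, every tested member whose groups do not overlap, the member with the highest mean FPKM in each role, up to 4 called genes per other list (with none called, the 1 with the smallest p) and Zfhx3. For each called member the 3 most correlated members were named. Other members and neighbouring genes in the text were chosen after their values were seen. Of 77 further pathway genes listed, 74 were found. Alternatives were a replicate block, DESeq2 1.42.0, RLE factors, library totals, no filter, at least 5 CPM in 3 libraries, limma-trend on log2(FPKM + 1) and log2(FPKM + 0.1), which kept genes with 3 libraries at or above 1 FPKM, and each library left out. Chosen after seeing the data were a fit that took out GC and length trends and one without Zfhx3-CKO libraries 1 and 3.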

Additional observations from a re-analysis of the deposited data

How the results depend on the processing

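The number of higher members, 4, was the same with RLE factors, library totals and at least 5 CPM, rose to 6 with DESeq2 and to 7 with no filter, and fell to 2 on both FPKM scales in limma, and to 2 with GC and length trends removed. Leaving out Zfhx3-CKO libraries 1 and 3 leaves 1 library in that group, assumed to vary like the controls, so no count of called genes is given for it. Leaving out 1 library at a time gave 0 (control 1, control 2 or Zfhx3-CKO 1 left out) to 8 (without Zfhx3-CKO library 2). The 1 lower member, Bmp15, was not among the genes tested at 5 CPM or on either FPKM scale (0 lower), and leaving out 1 library gave 1 to 2. The further pathway genes, 2 higher and 0 lower, gave 1 higher on both FPKM scales and with GC and length trends removed. They gave 2 lower with no filter, and 0 to 6 higher and 0 to 2 lower with 1 library left out. Over all genes, 640 higher and 578 lower became 1011 higher with DESeq2, 1075 higher with no filter, and 156 to 1082 higher and 131 to 1014 lower with 1 library left out. With the same number of samples, leaving out Zfhx3-CKO library 2 gave 857 higher and 605 lower genes and leaving out library 1 gave 221 and 180. The causes were not tested.

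With the replicate number as a block, 0 members were higher and 1 lower, 1 further pathway gene was higher, and 176 and 136 of all genes were higher and lower. Same-numbered libraries shared only a number: their deviations from the group means correlated at -0.03, -0.08 and -0.25.

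Zfhx3 passed the threshold with no filter (log2 fold change -0.36), without control library 3 (-0.50) and with GC and length trends removed (-0.53), and ran from -0.50 to -0.29 with 1 library left out. Sign was followed over the settings only for the genes named by the rules given earlier, not for the other members. Among those genes, some differences that did not pass the threshold changed sign, in members and in Hey1. With 1 library left out, Acvr1b ran from -0.074 (without Zfhx3-CKO 3) to 0.12, Fgfr2 from -0.25 to 0.0078 (without Zfhx3-CKO 3), Bmpr1a from -0.027 (without control 2; -0.0043 without Zfhx3-CKO 2) to 0.047, Hey1 from -0.13 (without Zfhx3-CKO 2; -0.0027 without control 2) to 0.16, and Tgfb3 from -0.27 to 0.13 (without Zfhx3-CKO 1; 0.026 without control 2). With Zfhx3-CKO library 2 alone, Acvr1b was at -0.10, Fgfr2 at 0.12 and Tgfb3 at 0.34, and with GC and length trends removed Acvr1b was at -0.021. The cause was not tested. Depth limits the scarce ligands: a member with 0 counts over a group may still be present at up to the 3 counts that a count of 0 allows.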
